A study of Homo sapiens with 9 samples.

Results

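The genes described here are the canonical histone genes, which encode the linker histone H1 and the core histones H2A, H2B, H3 and H4, together with H1F0, a linker histone gene outside the histone clusters. They were chosen by symbol (HIST1 to HIST4 followed by a family name, without pseudogene suffixes, plus H1F0), which gave 76 of the 58037 genes of the table. The families hold 7 H1 genes, 17 H2A genes, 23 H2B genes, 14 H3 genes and 15 H4 genes. GENCODE release 29 annotates 71 of the 76 as protein-coding. It annotates 4 members with H2B symbols as pseudogenes (HIST2H2BA, HIST2H2BB, HIST2H2BD and HIST3H2BA, none of them tested below). It has no entry for 1 more, HIST2H2BC, which was tested. RNA was sequenced from 3 human triple-negative breast cancer lines, and values of a group are given for MDA-MB-231 first, then for MDA-MB-436, then for MDA-MB-453. Every one of these lines gave 1 library after GSK343, a small-molecule inhibitor of the histone methyltransferase EZH2, 1 after shEZH2, a short hairpin RNA against the EZH2 transcript, and 1 control, so there were 9 libraries and 3 per group. The labels give the controls as untreated and the column headers name them shControl, and no dose, time or hairpin sequence is given in the sources used here. The labels do not say whether RNA was selected by its poly(A) tail.

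Nucleosomes wrap DNA around pairs of H2A-H2B and H3-H4 dimers, and H1 binds the DNA between them. EZH2 is the catalytic subunit of Polycomb repressive complex 2, which methylates a lysine of histone H3. Most canonical histone mRNAs are made in S phase and are the only metazoan mRNAs that end in a conserved stem-loop in place of a poly(A) tail. The stem-loop is bound by SLBP and the RNA is cut just after it. Some of these genes also give transcripts that run past the stem-loop to a poly(A) signal, and such forms are known from differentiating and non-dividing cells. H1F0, a replacement linker histone known to accumulate in resting and differentiated cells, has no stem-loop and is polyadenylated. A list of 11 members described as giving polyadenylated transcripts (H1F0, HIST1H1C, HIST1H2AC, HIST1H2BC, HIST1H2BD, HIST1H2BJ, HIST1H2BK, HIST1H4H, HIST2H2BE, HIST3H2A and HIST4H4) is set beside the other 65 below.

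The ends of the reference transcripts (GENCODE release 29, GRCh38) show both kinds of 3′ end. A stem-loop motif (GG, any 3 bases, TT, any base, T, any base, A, any 3 bases and CC) lay within 80 bases after the stop codon in 28 of the 32 members with that much annotated sequence (87.5%), against 0.359% of 18944 genes. A poly(A) signal, AATAAA or ATTAAA, lay in the last 40 bases of a transcript in 24 of 70 members (34.3%), against 82.9% of 19940 genes. Of these 70 members, 33 are annotated with no bases after the stop codon. The lower share therefore reflects in part how far the annotation reaches. The stem-loops of 6 members that the results turn on follow, 5′ to 3′ on the coding strand with the motif in capitals. Their positions are chr6:26123467-26123492 (minus strand) for HIST1H2BC, chr6:26158582-26158607 (plus) for HIST1H2BD, chr1:149886183-149886208 (minus) for HIST2H2BE, chr6:26124664-26124689 (plus) for HIST1H2AC, chr6:27808642-27808667 (plus) for HIST1H2AI and chr6:26285126-26285151 (minus) for HIST1H4H.
HIST1H2BC: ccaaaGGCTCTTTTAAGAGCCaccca
HIST1H2BD: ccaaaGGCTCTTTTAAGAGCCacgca
HIST2H2BE: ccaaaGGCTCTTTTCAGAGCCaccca
HIST1H2AC: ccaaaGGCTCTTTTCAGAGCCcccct
HIST1H2AI: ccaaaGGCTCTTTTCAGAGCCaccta
HIST1H4H: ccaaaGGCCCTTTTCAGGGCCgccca

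Beyond the stem-loop the annotated transcripts differ in length. The longest one runs 1729 bases past it in HIST2H2BE, 1655 bases in HIST1H4H and 1128 bases in HIST1H2AC, but 39 bases in HIST1H2AI. The last bases of the polyadenylated transcripts follow, with the poly(A) signal farthest from the end in capitals. HIST1H2BJ holds another AATAAA nearer to the end, left in lower case. They come from chr6:27125897-27125926 (minus strand) for HIST1H2BJ, chr6:26171323-26171349 (plus) for HIST1H2BD, chr1:149884459-149884484 (minus) for HIST2H2BE, chr6:26277609-26277627 (minus) for HIST1H4H, chr6:26139087-26139116 (plus) for HIST1H2AC and chr22:37807409-37807436 (plus) for H1F0. The transcripts of HIST1H2BJ, HIST1H2BD, HIST1H4H and HIST1H2AC shown here are annotated with more than 1 exon, so that the signal lies in a downstream exon. In HIST1H2BD and HIST1H2BC the annotated transcript of 2 exons holds no match to the stem-loop motif after its stop codon, and that of 1 exon does.
HIST1H2BJ: gAATAAAtgaataaagtaatattcctctgc
HIST1H2BD: ttAATAAAatctgcggagaattgtaaa
HIST2H2BE: ttAATAAAgttaccaattaatttaaa
HIST1H4H: aaAATAAAtgtttaagcca
HIST1H2AC: tAATAAAaggtaatgcaaagggagaggaaa
H1F0: aaAATAAAttggaaaagggagaaactga

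The deposited values are RPKM, reads scaled to gene length and library size, and they correspond to 14757000 to 18283000 reads per library. EZH2 itself was below the control of the same line under both labels, and lowest under the GSK343 label rather than the shEZH2 label. It had 5.77, 7.53 and 7.99 RPKM in the libraries labelled GSK343, 16.4, 37.4 and 16.2 RPKM in those labelled shEZH2, and 27.4, 38.9 and 42.3 RPKM in the controls. The groups are therefore named by their labels. The library labelled MDA-MB-453 also lay between the other lines for most members: for 22 of 23 tested members in the libraries labelled GSK343, 19 in those labelled shEZH2 and 20 in the controls, against 73.8%, 83.0% and 47.1% of all tested genes. Of 10 luminal markers known from MDA-MB-453, 1, 0 and 1 were highest in the library of that label in these 3 groups. Results are given with and without that line. Lines serve as the replicates in the comparisons of treatments, so those p-values rest on how far the differences vary between the labelled lines. The variance is pooled over all 3 groups, so variation in the difference between GSK343 and shEZH2 libraries enters it too. The p-values and intervals take the libraries labelled MDA-MB-453 as an independent line, which was not tested. If those libraries are not independent of the other lines, the p-values are too small and the intervals too narrow.

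Of the 76 members, 23 had 1 RPKM or more in 3 or more of the 9 libraries and were tested (3 H1, 6 H2A, 8 H2B, 3 H3 and 3 H4 genes). The other 53 were not tested. Of these, 12 were listed at 0 in every library, and the highest value among the 53 was 1.54 RPKM, for HIST1H2AH in 1 library. The 53 together held 0.461% to 3.13% of the summed RPKM of the members. The polyadenylated list, of which HIST4H4 at 0.06 to 0.48 RPKM was not tested, held 90.0% to 92.7% of that sum in the 9 libraries.

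Among the 76 members 4 stood far above the rest. H1F0, HIST1H2BK, HIST1H1C and HIST1H2AC averaged 95.8, 91.2, 88.7 and 86.3 RPKM over the 9 libraries, with spreads between libraries (below) wider than the gaps between these means. HIST1H2BD (21.5 RPKM) and HIST1H4I (15.1 RPKM) came next, and every other member averaged less. H3 was the lowest family by sum, at 3.40 to 12.8 RPKM per library.

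**Figure D1:**
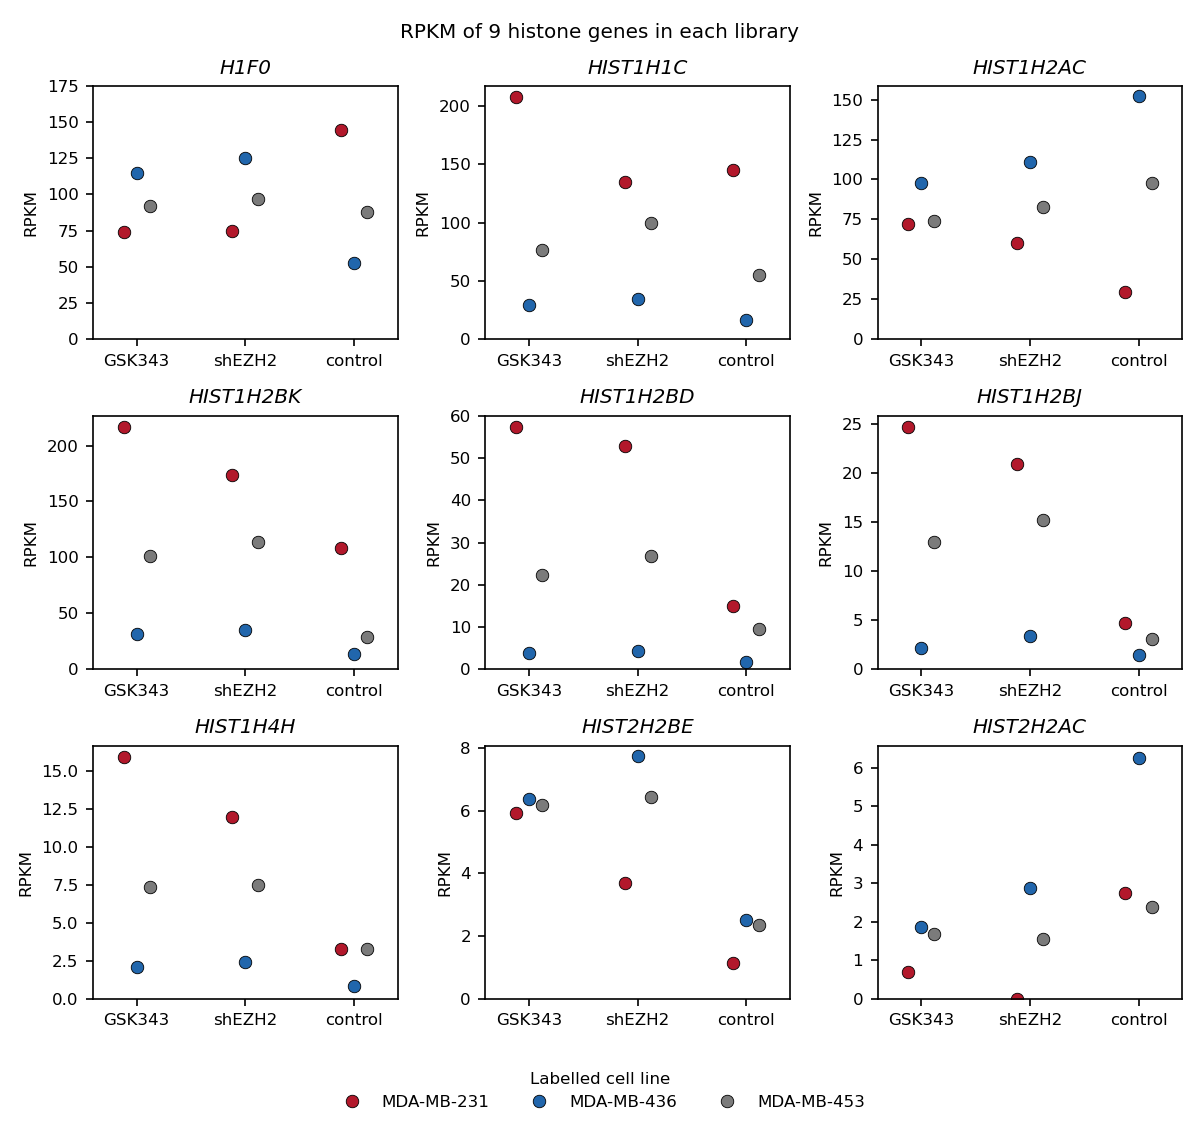
RPKM (vertical axis, starting at 0) of 9 histone genes in each library, with the libraries labelled GSK343 and shEZH2 left of the controls and 1 point per labelled line. HIST2H2BE lies at 3.69 to 7.76 RPKM in the 6 intervention libraries and at 1.14 to 2.53 RPKM in the controls, while H1F0 is lower than its control in MDA-MB-231 and higher than it in MDA-MB-436.

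Under the GSK343 label, 10 of the 23 tested members were higher than in the controls and 2 were lower by limma at an adjusted p under 0.05 over all 12965 tested genes. Among all tested genes 6.25% were higher and 1.60% lower (7.85% in all, and 12 of 23 members). The median log2 fold change was 0.59 over the tested members and 0.0551 over all genes. Under the shEZH2 label 11 members were higher and 2 lower, where 8.35% and 2.28% of all genes were (10.6% in all), and the medians were 0.65 over members and 0.0517 over all genes. Both comparisons use the same 3 control libraries. The minimum on RPKM favours genes that are high after an intervention: HIST1H2AI, HIST1H2BN and HIST2H2BC passed it with every control library below 1 RPKM. Of the 20 other members 9 were higher and 2 lower under each label, where 5.7% (GSK343) and 7.48% (shEZH2) of the genes left by the same rule were higher.

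H2B genes made up 7 of the 10 higher calls for GSK343 and 7 of the 11 for shEZH2, from 8 tested H2B genes. Among all tested genes 6.25% and 8.35% were higher. Of the 8, HIST1H2BN (called) and HIST2H2BC (not called) passed the minimum on RPKM with every control library below 1 RPKM. HIST1H2BK, the most abundant of them, had 217, 31.4 and 101.1 RPKM in the libraries labelled GSK343, 173, 34.5 and 114 RPKM in those labelled shEZH2, and 108, 13.3 and 28.2 RPKM in the controls. Each intervention library was above the control of its own line. The log2 fold change of RPKM + 1 was 1.33 ± 0.45 under the GSK343 label (half-width of the 95% interval, n = 3 lines, adjusted p = 0.00391) and 1.32 ± 0.45 under the shEZH2 label (adjusted p = 0.00421). HIST1H2BD had 57.3, 3.74 and 22.2 RPKM under the GSK343 label, 52.9, 4.32 and 26.7 RPKM under the shEZH2 label, and 14.9, 1.64 and 9.41 RPKM in the controls. The lines differ so much in level that the groups overlap, but within each line both intervention libraries were higher. Its log2 fold changes were 1.29 ± 0.40 (GSK343, adjusted p = 0.00273) and 1.40 ± 0.40 (shEZH2, adjusted p = 0.00179). The annotation places HIST1H2BD over AL353759.1 on the opposite strand and over LARP1P1, and no source used here says whether counting used strand, so its value is uncertain.

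HIST1H2BJ had the largest log2 fold change of the tested members under both labels. Its level was 24.7, 2.16 and 13.0 RPKM under the GSK343 label, 20.96, 3.37 and 15.2 RPKM under the shEZH2 label, and 4.71, 1.44 and 3.01 RPKM in the controls. The log2 fold changes were 1.45 ± 0.58 (GSK343, adjusted p = 0.0094) and 1.60 ± 0.58 (shEZH2, adjusted p = 0.0058), with within-line differences as low as 0.37 for GSK343 in MDA-MB-436 and as high as 2.17 in MDA-MB-231. HIST2H2BE, which lies on chromosome 1 and not in the large cluster on chromosome 6, had 5.93, 6.38 and 6.18 RPKM under the GSK343 label, 3.69, 7.76 and 6.44 RPKM under the shEZH2 label, and 1.14, 2.53 and 2.35 RPKM in the controls. Every intervention library was above every control library. Its log2 fold changes were 1.29 ± 0.37 (GSK343, adjusted p = 0.0019) and 1.20 ± 0.37 (shEZH2, adjusted p = 0.00237). The groups of HIST1H2BN, which is not on the polyadenylated list, did not overlap either, while those of the other H2B genes of the list did. The share of all tested genes without overlap was not counted, so the separation is not read as a trait of HIST2H2BE.

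The remaining H2B calls were of low genes. HIST1H2BC had 6.83, 1.01 and 5.002 RPKM under the GSK343 label, 6.69, 1.55 and 5.84 RPKM under the shEZH2 label, and 2.50, 0.71 and 1.12 RPKM in the controls (log2 fold changes 0.96 and 1.13, adjusted p = 0.022 and 0.00997). HIST1H2BO had 7.47, 1.74 and 3.76 RPKM under the GSK343 label, 5.74, 0.59 and 3.63 RPKM under the shEZH2 label, and 3.13, 0.16 and 1.63 RPKM in the controls (log2 fold changes 1.05 and 0.66, adjusted p = 0.00365 and 0.023). These values rest on few reads, 1 to 42 per library for HIST1H2BO and 10 to 102 for HIST1H2BC. HIST1H2BN, at 0.52 to 2.26 RPKM in the libraries labelled GSK343, 0.43 to 2.09 RPKM in those labelled shEZH2 and 0.16 to 0.37 RPKM in the controls, was called higher under both labels (0.85 and 0.80). It overlaps HIST1H2AL, HIST1H2AK and HIST1H2BPS2 in the annotation, so its value is uncertain. HIST2H2BC, at 0.00 to 1.45 RPKM, was not called (0.07 and 0.12).

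**Figure D2:**
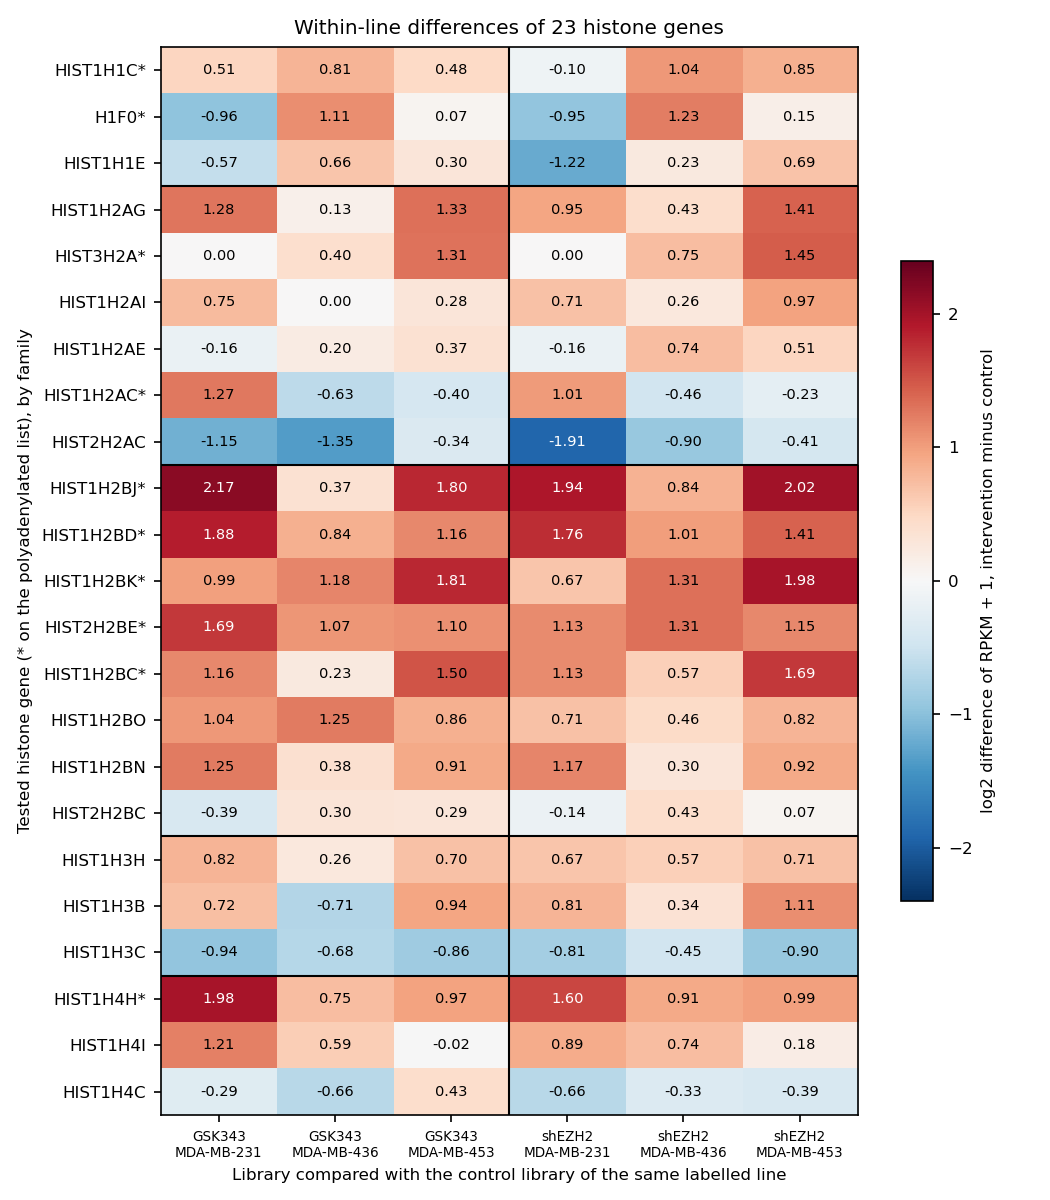
Difference in log2(RPKM + 1) between each intervention library and the control library of the same labelled line, for the 23 tested members in rows grouped by family, with GSK343 in the left 3 columns and shEZH2 in the right 3 and members of the polyadenylated list marked with an asterisk. HIST1H2BD, HIST1H2BK, HIST2H2BE and HIST1H4H are higher in all 6 columns, HIST2H2AC and HIST1H3C are lower in all 6, and H1F0 and HIST1H2AC change sign between lines.

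Neither of the abundant linker histone genes passed for a single label. HIST1H1C, which encodes the widely expressed linker histone H1.2, had 208, 29.1 and 76.6 RPKM under the GSK343 label, 135, 34.2 and 99.8 RPKM under the shEZH2 label, and 145, 16.1 and 54.7 RPKM in the controls. It passed for neither label alone (0.60 ± 0.45 for both, adjusted p = 0.0957 for GSK343 and 0.0856 for shEZH2), but passed for the mean of both interventions (0.60 ± 0.39, adjusted p = 0.0421). H1F0 had 73.8, 115 and 91.9 RPKM under the GSK343 label, 74.5, 125 and 97.1 RPKM under the shEZH2 label, and 145, 52.6 and 87.6 RPKM in the controls. In MDA-MB-231 both intervention libraries were lower than the control (log2 differences -0.96 and -0.95), in MDA-MB-436 both were higher (1.11 and 1.23), and in MDA-MB-453 they were near it (0.07 and 0.15). Averaged over lines the log2 fold change of H1F0 was 0.07 ± 0.70 (GSK343, adjusted p = 0.914) and 0.14 ± 0.70 (shEZH2, adjusted p = 0.802). The 95% intervals, -0.63 to 0.77 and -0.56 to 0.84, leave room for a change of either sign. HIST1H1E had 1.71, 0.96 and 1.04 RPKM under the GSK343 label, 0.73, 0.45 and 1.68 RPKM under the shEZH2 label, and 3.01, 0.24 and 0.66 RPKM in the controls, and was not called (0.13 and -0.10).

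Among the H2A genes calls went both ways. HIST1H2AC, the most abundant, had 71.9, 98.0 and 73.8 RPKM under the GSK343 label, 60.1, 111 and 83.0 RPKM under the shEZH2 label, and 29.3, 152 and 97.8 RPKM in the controls. It was higher than its control in MDA-MB-231 (1.27 and 1.01) and lower than it in MDA-MB-436 (-0.63 and -0.46) and MDA-MB-453 (-0.40 and -0.23), so that the controls spread over a range that the intervention libraries do not reach at either end. It was not called (0.08 ± 0.63, adjusted p = 0.894, and 0.11 ± 0.63, adjusted p = 0.839). HIST1H2AG had 5.54, 0.64 and 3.04 RPKM under the GSK343 label, 4.21, 1.02 and 3.26 RPKM under the shEZH2 label, and 1.70, 0.50 and 0.61 RPKM in the controls, and was called higher under both labels (0.91 ± 0.48, adjusted p = 0.0286, and 0.93 ± 0.48, adjusted p = 0.0213). HIST3H2A was at 0 reads in all 3 libraries of MDA-MB-231. It had 16.5 and 8.01 RPKM in the libraries labelled GSK343 of MDA-MB-436 and MDA-MB-453, 21.3 and 8.94 RPKM in those labelled shEZH2, and 12.2 and 2.64 RPKM in the controls, and passed only for the mean of both interventions (0.65 ± 0.44, adjusted p = 0.0471). That call was lost with limma voom on recovered reads.

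HIST2H2AC was called lower under both labels, a call that other settings end. It had 0.695, 1.86 and 1.67 RPKM under the GSK343 label, 0.00, 2.88 and 1.54 RPKM under the shEZH2 label, and 2.75, 6.26 and 2.39 RPKM in the controls. Under the GSK343 label the groups did not overlap, a pattern whose share over all tested genes was not counted. Under the shEZH2 label the library of MDA-MB-436 lay inside the range of the controls. The log2 fold changes were -0.95 ± 0.55 (GSK343, adjusted p = 0.0419) and -1.08 ± 0.55 (shEZH2, adjusted p = 0.0211), on 0 to 41 reads per library. With limma voom on recovered reads it did not pass (adjusted p = 0.233 for GSK343 and 0.104 for shEZH2), nor with a pseudocount of 0.1 (adjusted p = 0.226 and 0.0574). HIST1H2AI had 1.48, 0.12 and 0.52 RPKM under the GSK343 label, 1.41, 0.34 and 1.43 RPKM under the shEZH2 label, and 0.47, 0.12 and 0.25 RPKM in the controls. It was called higher under the shEZH2 label (0.64 ± 0.40, adjusted p = 0.0436) and not under the GSK343 label (0.35 ± 0.40, adjusted p = 0.254), on 1 to 13 reads per library. HIST1H2AE, at 0.00 to 3.20 RPKM, was not called (0.14 and 0.36).

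H3 and H4 transcripts were low apart from HIST1H4I and HIST1H4H. HIST1H4H had 15.9, 2.07 and 7.38 RPKM under the GSK343 label, 12.01, 2.44 and 7.48 RPKM under the shEZH2 label, and 3.28, 0.83 and 3.27 RPKM in the controls. All within-line differences were positive, and the log2 fold changes were 1.23 ± 0.44 (GSK343, adjusted p = 0.00527) and 1.17 ± 0.44 (shEZH2, adjusted p = 0.00727). HIST1H4I had 36.7, 3.97 and 13.8 RPKM under the GSK343 label, 29.2, 4.51 and 15.9 RPKM under the shEZH2 label, and 15.3, 2.30 and 14.0 RPKM in the controls. Its within-line log2 differences were lowest in MDA-MB-453 (-0.02 and 0.18), and it passed only for the mean of both interventions (0.60 ± 0.37, adjusted p = 0.0343). With limma voom on recovered reads it passed under both labels. HIST1H4C, at 0.42 to 1.50 RPKM under the GSK343 label, 0.41 to 0.77 RPKM under the shEZH2 label and 0.86 to 1.37 RPKM in the controls, was not called (-0.17 and -0.46).

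The 3 tested H3 genes gave 3 different outcomes. HIST1H3H had 5.09, 0.83 and 2.74 RPKM under the GSK343 label, 4.51, 1.27 and 2.77 RPKM under the shEZH2 label, and 2.46, 0.53 and 1.30 RPKM in the controls, and was called higher under both (0.59 ± 0.33, adjusted p = 0.0356, and 0.65 ± 0.33, adjusted p = 0.0201). HIST1H3C had 1.48, 0.44 and 0.63 RPKM under the GSK343 label, 1.73, 0.68 and 0.59 RPKM under the shEZH2 label, and 3.77, 1.30 and 1.96 RPKM in the controls. It was lower than its control in every line (-0.83 ± 0.32, adjusted p = 0.00721, and -0.72 ± 0.32, adjusted p = 0.0128), on 3 to 26 reads per library. With voom it passed for GSK343 (adjusted p = 0.0348) and not for shEZH2 (adjusted p = 0.0514). HIST1H3B had 5.44, 0.15 and 2.38 RPKM under the GSK343 label, 5.86, 1.37 and 2.78 RPKM under the shEZH2 label, and 2.90, 0.87 and 0.76 RPKM in the controls, and was not called (0.32 and 0.75).

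Members of the polyadenylated list were called higher in 6 of 10 tested cases under each label and lower in 0, with median log2 fold changes of 1.10 (GSK343) and 1.15 (shEZH2). The list was chosen with earlier results of these data known, so these counts are no independent test of it. Of the 13 tested members outside the list, 4 were higher and 2 lower under the GSK343 label (median 0.32). Under the shEZH2 label 5 of them were higher and 2 lower (median 0.60). Among all tested genes 6.25% (GSK343) and 8.35% (shEZH2) were higher. The 13 include HIST1H2AI, HIST1H2BN and HIST2H2BC, which passed the minimum on RPKM with every control library below 1 RPKM. For the mean of both interventions 8 of 10 list members and 5 of 13 others were higher, and 0 and 2 were lower, where 12.2% of all genes were higher and 4.30% lower (16.5% in all). The list spans a wide range: its 2 members without a call for that mean, H1F0 and HIST1H2AC, were those that moved in opposite directions in MDA-MB-231 and MDA-MB-436. A narrower list of 6 (H1F0, HIST1H1C, HIST1H2AC, HIST1H2BD, HIST1H2BK and HIST2H2BE) gave 3 higher calls under each label.

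The annotated transcript end gave a grouping made without the list but not independent of it. Of the 24 members with a poly(A) signal at an annotated end, 8, all tested, are on the list. Of the same 24 members, 11 were tested. Under each label 8 of these were higher and 0 lower (medians 0.91 for GSK343 and 0.93 for shEZH2). Among all tested genes 6.25% (GSK343) and 8.35% (shEZH2) were higher. The 8 called higher include HIST1H2AG, HIST1H2BN and HIST1H3H, which are not on the list. The others, HIST1H2BC, HIST1H2BD, HIST1H2BJ, HIST1H4H and HIST2H2BE, are list members already counted above. Of the 10 members with a stem-loop and no poly(A) signal at an annotated end, 3 were tested. Of these, 0 were called higher for GSK343 and 1, HIST1H2AI, for shEZH2. HIST1H2BN and HIST1H2AI passed the minimum on RPKM with every control library below 1 RPKM. The 33 members annotated over the coding sequence alone had 6 tested genes, of which HIST1H2BK and HIST1H2BO were higher and HIST2H2AC and HIST1H3C lower under both labels. Reads beyond the coding sequence of these genes are outside the annotated exons, so the values do not bear on how their transcripts end. The 53 untested members include 13 with an annotated poly(A) signal, and how the untested ones responded is not known from these values.

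Many H2A and H2B genes face each other across a short shared promoter. The CCAAT box (CCAAT or ATTGG, the motif bound by NF-Y) was found in 50 of the 60 member promoters given by RefSeq (GRCh38.p14, 300 bases around the start; 83.3%, against 35.7% of 27305 promoters). The octamer (ATTTGCAT or ATGCAAAT, the motif bound by OCT1 at H2B promoters) was in 25 (41.7%, against 1.8%). These were 13 of 17 H2B, 11 of 14 H2A, 1 of 10 H3, 0 of 6 H1 and 0 of 13 H4 promoters. The H3 window, of HIST1H3D, is the same stretch as that of HIST1H2AD (chr6:26199244-26199543). Windows of divergent neighbours overlap, so a single motif can be counted for both genes. TATAAA on either strand was in 40 (66.7%, against 12%). Divergent neighbours did not always move together. HIST1H2BJ and HIST1H2AG, 291 bases apart, were both higher under both labels. HIST2H2BE and HIST2H2AC, 322 bases apart, were called in opposite directions under both labels, of which the call of HIST2H2AC is lost with voom and with a pseudocount of 0.1. HIST1H2BC was higher and HIST1H2AC was not called, at 218 bases apart. The promoters of HIST1H2BJ (chr6:27132746-27133045, minus strand) and HIST2H2BE (chr1:149886633-149886932, minus strand) are shown as the 2 pairs with contrasting outcomes, with CCAAT boxes and octamers in capitals on either strand.
HIST1H2BJ: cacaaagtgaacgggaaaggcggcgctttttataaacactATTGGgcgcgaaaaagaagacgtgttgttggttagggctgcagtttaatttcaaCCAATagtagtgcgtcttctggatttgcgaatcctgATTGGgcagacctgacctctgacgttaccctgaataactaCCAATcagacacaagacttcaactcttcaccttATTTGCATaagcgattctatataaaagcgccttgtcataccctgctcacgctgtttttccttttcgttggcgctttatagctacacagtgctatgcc
HIST2H2BE: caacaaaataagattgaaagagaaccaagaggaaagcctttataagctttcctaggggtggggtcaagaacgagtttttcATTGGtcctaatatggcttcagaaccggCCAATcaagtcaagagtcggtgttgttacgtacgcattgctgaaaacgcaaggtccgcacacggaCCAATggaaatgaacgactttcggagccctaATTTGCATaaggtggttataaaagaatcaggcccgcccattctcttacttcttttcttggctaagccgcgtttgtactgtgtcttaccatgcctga

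Both promoters hold 1 octamer, with 4 CCAAT boxes in HIST1H2BJ and 3 in HIST2H2BE. Each window overlaps the RefSeq promoter window of its neighbour (chr6:27132793-27133092 for HIST1H2AG, chr1:149886668-149886967 for HIST2H2AC). The distances above are between gene ends in GENCODE release 29, where HIST2H2AC is annotated over its coding sequence alone.

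Summed over all members, histone RPKM was 754, 330 and 447 in the libraries labelled GSK343, 598, 376 and 508 in those labelled shEZH2, and 499, 279 and 322 in the controls. Each intervention library had a larger sum than the control of its line. H2B summed to 323, 52.3 and 157 RPKM under the GSK343 label, 267, 58.9 and 177 RPKM under the shEZH2 label, and 137, 24.4 and 48.9 RPKM in the controls. The share of H2B in the histone sum was 42.8%, 15.9% and 35.1% in the libraries labelled GSK343, 44.7%, 15.7% and 34.9% in those labelled shEZH2, and 27.5%, 8.75% and 15.2% in the controls. Most of the H2B sum in every library came from HIST1H2BK, which is annotated over its coding sequence alone. It had 217, 31.4 and 101.1 RPKM under the GSK343 label and 108, 13.3 and 28.2 RPKM in the controls. H1 and H2A sums went different ways by line: H1 was 283, 145 and 170 RPKM under the GSK343 label and 293, 69.2 and 143 RPKM in the controls, and H2A was 80.01, 120 and 89.0 RPKM under the GSK343 label and 37.7, 175 and 105 RPKM in the controls.

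**Figure D3:**
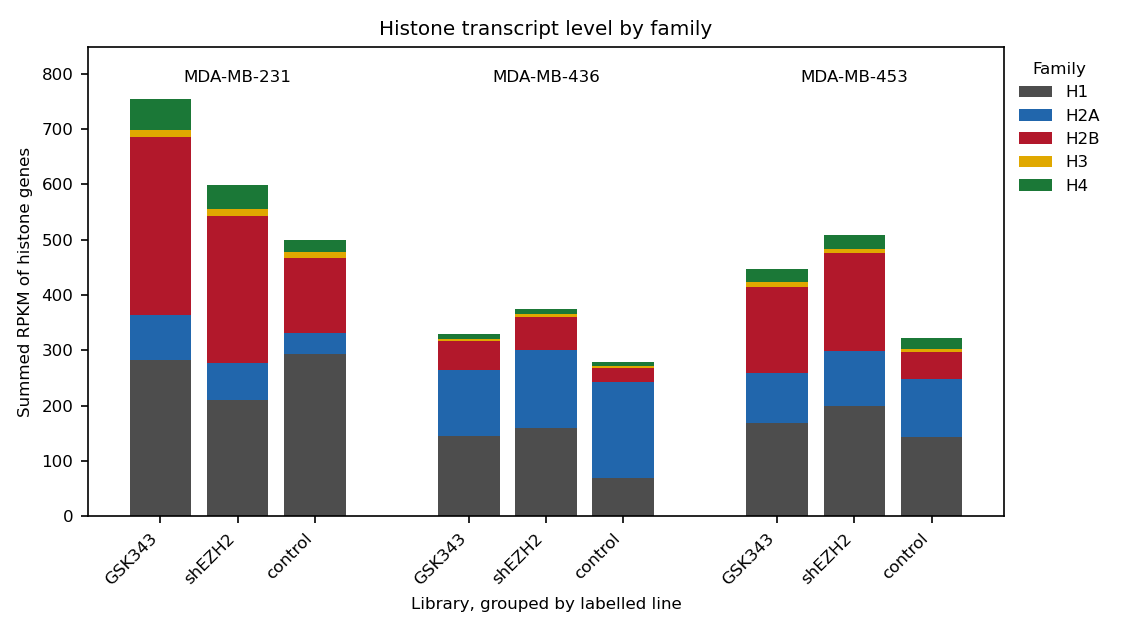
Summed RPKM of all 76 members in each library, stacked by histone family, with the libraries labelled GSK343 and shEZH2 left of the control within each labelled line. The H2B segment is larger in all 6 intervention libraries than in the control of the same line, reaching 323 RPKM in MDA-MB-231 under the GSK343 label. HIST1H2BK makes up most of the H2B segment in every library.

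Within single lines, where a difference has no replicate, at least 2-fold changes of RPKM + 1 in members were mostly increases. Under the GSK343 label 10, 4 and 7 of 23 members were at least 2-fold higher in the 3 lines (2.31%, 2.58% and 4.81% of all genes) and 1, 1 and 0 were at least 2-fold lower (0.864%, 0.463% and 1.03%). Under the shEZH2 label 7, 5 and 8 were at least 2-fold higher (3.13%, 2.35% and 4.87% of all genes) and 2, 0 and 0 lower (0.918%, 0.309% and 0.764%). The direction was the same in all 3 lines, upward, for 12 members after GSK343 (26.3% of all genes) and 13 after shEZH2 (27.5%). It was downward in all 3 lines for 2 members after GSK343 (14.4% of all genes) and 3 after shEZH2 (17.4%), namely HIST1H3C and HIST2H2AC in both and HIST1H4C after shEZH2. HIST2H2BE passed 2-fold in all 6 comparisons.

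No member was called between the libraries labelled GSK343 and shEZH2 (0 of 23 by limma, where 0.00% of all genes passed; 1 at an unadjusted p under 0.05 and 0 with voom on recovered reads). The exception at the unadjusted level was HIST1H2BO (log2 difference 0.39 ± 0.35, adjusted p = 0.9998). The 95% half-widths ran from 0.32 for HIST1H3C to 0.70 for H1F0, so smaller differences than these remain possible.

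The response of members to EZH2 targeting was also compared between lines. In the F-test on the mean response of each line, 0 of 23 members passed after adjustment, as did 0.0231% of all genes, while 12 members and 28.6% of all genes had an unadjusted p under 0.05. H1F0 (adjusted p = 0.0676) and HIST1H2AC (adjusted p = 0.08) had the smallest adjusted values among members. Without the MDA-MB-231 library labelled GSK343, or without the one labelled shEZH2, 11 members passed, as did 30.6% and 31.2% of all genes. Without the whole line 6 members passed and 26.1% of all genes.

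Genes that act on histone transcripts or in S phase were measured beside the members. Of 15 genes of histone mRNA processing and transcription, 0 were called under the GSK343 label, and 1, SRRT, was lower under the shEZH2 label (-0.63 ± 0.33, adjusted p = 0.0232). SLBP, which binds the stem-loop, had 44.0, 84.3 and 65.1 RPKM under the GSK343 label, 49.5, 88.1 and 64.8 RPKM under the shEZH2 label, and 53.3, 87.8 and 81.2 RPKM in the controls and was not called (-0.21 ± 0.30 and -0.14 ± 0.30). NPAT, the S-phase activator of histone transcription, was not called either (-0.03 ± 0.45 and 0.00 ± 0.45). Of 15 S-phase and proliferation genes 4 were lower under the GSK343 label (PCNA, MCM6, TYMS and CCNA2) and 3 under the shEZH2 label (PCNA, MCM6 and TYMS), where 1.60% and 2.28% of all genes were lower, and 0 were higher. PCNA, the replication clamp, had 68.3, 83.4 and 70.2 RPKM under the GSK343 label, 86.3, 84.0 and 78.9 RPKM under the shEZH2 label, and 122, 114 and 123 RPKM in the controls (-0.69 ± 0.31 and -0.52 ± 0.31). MKI67, a marker of cycling cells, was not called (-0.40 ± 0.44 and -0.23 ± 0.44). In bulk RNA fewer cells in S phase and less RNA per cell cannot be told apart, and the part of these genes in the member results was not tested.

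Replication-independent variant genes and histone chaperones gave calls in single genes. Of 10 tested variant genes 1 was called under the GSK343 label and 2 for shEZH2 (7.85% and 10.6% of all genes). H2AFJ, an H2A variant gene with a polyadenylated transcript, was higher at 9.31, 35.4 and 15.96 RPKM under the GSK343 label and 7.71, 39.2 and 22.2 RPKM under the shEZH2 label, against 6.69, 19.05 and 6.86 RPKM in the controls (0.80 ± 0.45, adjusted p = 0.0384, and 0.91 ± 0.45, adjusted p = 0.0192). H3F3A, one of the genes for H3.3, was lower under the shEZH2 label (-0.59 ± 0.32, adjusted p = 0.025) at 1.21 to 1.36 RPKM, against 2.16 to 2.999 RPKM in the controls. H3F3B, another H3.3 gene, was far more abundant, at 37.1 to 45.3 RPKM under the shEZH2 label and 41.1 to 63.3 RPKM in the controls. It was not called under that label (-0.35 ± 0.31, adjusted p = 0.139). Of 15 chaperone genes 1 was called, SSRP1, a subunit of the FACT complex, lower under both labels (-0.70 ± 0.31 and -0.73 ± 0.31).

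Of the 3 lines, leaving out the libraries labelled MDA-MB-453 cost the most calls. Without them 0 of 23 members passed under either label (14 for GSK343 and 13 for shEZH2 at an unadjusted p under 0.05), when 0.332% and 0.123% of all genes passed. For the mean of both interventions HIST1H2BD, HIST1H2BK and HIST2H2BE still passed, at log2 fold changes of 1.37, 1.04 and 1.30. The median log2 fold change over members without that line was 0.54 (GSK343) and 0.58 (shEZH2). Without MDA-MB-231, 5 members passed under each label, against 3.51% (GSK343) and 3.10% (shEZH2) of all genes.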

How the data were processed

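The authors deposited RPKM for 58037 genes in 9 columns, all of which were used. STAR, HTSeq and the build GRCh38 are named in the submitters' processing notes. Their versions, the annotation, the library selection and the strand setting of the counts: not given in the sources used here. With GENCODE release 29 exon lengths, 100% of the values above 0 came out as whole reads within 0.05 of a read among the 53688 genes with a length there, and 92.5% of gene identifiers occur there in the same version.

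Columns were assigned by header, each line was a replicate (1 for MDA-MB-231, 2 for MDA-MB-436, 3 for MDA-MB-453), and treatments were compared within lines. The pairing comes from the shared line: deviations from the group means correlated across genes at 0.358 to 0.953 within a line and at -0.957 to 0.09 between lines. The 12965 genes with 1 RPKM or more in 3 or more of the 9 libraries were fitted as log2(RPKM + 1), which understates changes of low genes, with limma 3.58.1 (R 4.3.3), a mean-variance trend, and terms for treatment and line (4 residual degrees of freedom). P-values are two-sided and adjusted by Benjamini-Hochberg over all these genes, with a threshold of 0.05. A second model tested by F-test whether the mean response differed between lines (3 residual degrees of freedom). It took the GSK343 and shEZH2 libraries of a line as replicates of each other, with 1 control library per line. The tests were checked on simulated data. Errors of log2 fold changes are half-widths of 95% intervals. An exact test on 3 pairs could not pass the threshold.

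The members, the lists and the rule for naming genes were chosen with earlier results of these data known. Genes named with values are H1F0, the called members, the tested members of the polyadenylated list, the 3 most abundant members of each family, and of the other lists the called genes (up to 4 per list) with SLBP, NPAT, PCNA, MKI67 and EZH2. H3F3B is given beside H3F3A for comparison. HIST1H2BA, HIST2H2BC and HIST2H2BD, 3 members of which HIST2H2BC was tested, had no length under their identifiers in the release and so no recovered reads, and HIST2H2AA3, HIST2H2AA4, HIST2H3A and HIST2H3C, near-identical copies, were at 0. Promoters are RefSeq windows. The motifs were searched on both strands in promoters and on the coding strand in transcripts.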

Additional observations from a re-analysis of the deposited data

Results flagged for a closer look

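In 5 members both interventions moved one way in 1 line and the opposite way in another. The pairwise difference was not tested. The F-test over all 3 lines, which bears on it, gave no adjusted p under 0.05 for any of the 5.

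H1F0 differed most: the mean log2 difference of both interventions from control was 2.13 higher in MDA-MB-436 (1.17) than in MDA-MB-231 (-0.96), with an F-test adjusted p of 0.0676. With limma voom on recovered reads it passed, at an adjusted p of 0.025, as 1 of 3 genes of the whole table. The mean difference of HIST1H2AC was 1.69 higher in MDA-MB-231 (1.14) than in MDA-MB-436 (-0.54), with an adjusted p of 0.08. In both genes the control libraries, and not the intervention libraries, held the highest and the lowest value of the 9. HIST1H1E was 1.38 higher in MDA-MB-453 than in MDA-MB-231 (adjusted p = 0.15), at 3 to 38 reads per library. HIST2H2BC and HIST1H2AE were each 0.63 higher in MDA-MB-436 than in MDA-MB-231 (adjusted p = 0.263 and 0.32), at levels of 0.00 to 1.45 and 0.00 to 3.20 RPKM.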

How the results depend on the processing

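No called member reversed under any alternative. Without the replicate block 0, 0 and 0 members passed for GSK343, shEZH2 and the mean of both (3, 1 and 3 at an unadjusted p under 0.05), against 12, 13 and 15 with it. Without a filter on low values 0, 0 and 2 passed (14, 17 and 16 unadjusted), and 2 in the test between lines. With an RPKM of at least 0.1 in 3 libraries 6 and 7 passed for GSK343 and shEZH2. With a mean RPKM of at least 5, which left 9 members, 4, 5 and 7 passed, and 1 between lines. Without MDA-MB-231 the counts were 5, 5 and 9, and 6 between lines, where 26.1% of all genes passed. Without MDA-MB-436 they were 12, 14 and 14, and without MDA-MB-453 they were 0, 0 and 3. With voom 1 member passed between lines, HIST2H2AC lost its calls, and HIST1H2BO and HIST1H3C lost theirs for shEZH2. HIST1H4I gained calls under both labels. For the mean of both, HIST3H2A lost its call and HIST1H2AI gained one.

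Leaving out 1 library at a time gave 6 to 13 members for GSK343, 6 to 15 for shEZH2, 9 to 16 for the mean of both, 0 to 0 for GSK343 against shEZH2 and 0 to 11 for the test between lines. For GSK343 the count was 6 without the MDA-MB-231 library labelled GSK343, 7 without the MDA-MB-453 one and 6 without the control of MDA-MB-453. For shEZH2 it was 7 without either the MDA-MB-231 or the MDA-MB-453 library labelled shEZH2, 8 without the control of MDA-MB-231 and 6 without that of MDA-MB-453. For the mean of both it was 9 without the control of MDA-MB-453. Between lines it was 11 without the MDA-MB-231 library labelled GSK343 or shEZH2 (30.6% and 31.2% of all genes), and 1 without the control of MDA-MB-453. The cause was not tested in any of these cases.

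Rescaling by median ratios changed the balance over all genes to 517 higher and 444 lower for GSK343 (810 and 208 as deposited), 796 and 620 for shEZH2 (1082 and 295), and 1129 and 1151 for the mean of both (1584 and 557). Members were then 9 higher and 2 lower for GSK343, 10 and 2 for shEZH2, and 10 and 2 for the mean of both, which lost HIST1H1C, HIST3H2A and HIST1H4I. Depth limits the calls of HIST2H2AC, HIST1H3C, HIST1H2AI and HIST1H2BO, which rest on 42 reads or fewer per library.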
